A study of Mus musculus with 39 samples.

Results

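Frizzled proteins are the cell surface receptors that bind secreted Wnt ligands. The mouse genome encodes 10 of them, Fzd1 to Fzd10, and all 10 were found among the 55401 genes of the deposited count and FPKM tables by matching the Ensembl identifier, without its version, to GENCODE release M21. The family was taken up because Fzd5 read higher in control libraries of the nucleus accumbens (NAc) than in those of the other region, PFC. The members were thus selected on the control FPKM and counts of the 2 regions, and these values are given below as a description, which supports nothing. The susceptible and resilient libraries were not used in that choice, and the same region difference was tested in them.

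The study sequenced total RNA of astrocytes of male control mice and of male mice stressed by chronic social defeat, in which a mouse meets an aggressor repeatedly and is later classed by how it behaves towards others. The 39 libraries fall into 6 groups. In NAc there were 8 libraries of susceptible, 7 of resilient and 7 of control mice, and in PFC there were 6 of susceptible, 5 of resilient and 6 of control mice. The groups differ in region and in behavioural class after stress, and control mice are those labelled as controls. Strain and age were not given in the sources used here. Cells were captured on beads that bind ACSA-2, an antigen of astrocytes carried by the product of Atp1b2, an ATPase subunit. The labels' protocol describes punches of NAc for every library, whereas the tissue label of 17 libraries reads PFC, which is not spelled out there and is read here as prefrontal cortex. Each library carries a mouse number that equals its sample number. In 16 cases a PFC and a NAc library with consecutive numbers share a condition, and whether they are from 1 animal is not settled by the labels. The p-values therefore reflect only how these libraries vary, as labelled.

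In canonical Wnt signalling a ligand joins a Frizzled receptor to the co-receptor Lrp5 or Lrp6, Dishevelled is recruited and β-catenin escapes destruction and acts with TCF and LEF factors in the nucleus. Other Wnt responses use Frizzled receptors without β-catenin, among them planar cell polarity, which orients cells and guides axons. Astrocytes are known to express Frizzled receptors and to take part in Wnt signalling with neurons and vessels in the brain.

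The libraries held between 0.941 and 37.3 M counts, with a median of 11.3 M. Because the counts cover introns, a level is given as FPKM over the whole gene span, and a background cover was estimated from 1481 chemosensory receptor genes, genes mostly silent outside the sensory organs. That background lay between 13.4% and 80.8% of an even cover of all gene spans (0.767 FPKM), with a median of 58.0%. It averaged 55.7 ± 7.9% in NAc and 46.5 ± 18.0% in PFC of susceptible mice. In resilient mice it averaged 64.3 ± 10.5% in NAc and 47.1 ± 23.7% in PFC, and in controls 52.9 ± 9.2% and 50.2 ± 17.7%. The background was thus less even between the regions in stressed mice than in controls. All 10 astrocyte markers, such as Aqp4, Slc1a2 and Gja1, had counts in every library. Their summed level was 5093 ± 1788 CPM (counts scaled to the library total) in NAc susceptible, 3817 ± 2532 in NAc resilient and 5532 ± 1772 in NAc control libraries. In PFC it was 7500 ± 3868 CPM in susceptible, 7296 ± 5251 in resilient and 4673 ± 1710 in control libraries. Markers of neurons, oligodendrocytes, vessels and microglia were detected in every group as well. In such sorted bulk samples, fewer cells of a type and less RNA per cell cannot be told apart.

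Fzd2 was the most abundant member per length of gene span, at a mean of 4.87 FPKM over the 39 libraries, and Fzd10 the least abundant, at 0.551 FPKM. Fzd1 averaged 2.22, Fzd7 1.65, Fzd5 1.55, Fzd9 1.51 and Fzd4 1.46 FPKM. Fzd8 averaged 0.907, Fzd6 0.888 and Fzd3 0.757 FPKM. Fzd2, Fzd1 and Fzd7 belong to 1 closely related subgroup of the family, and Fzd5 and Fzd8 to another. Fzd2 was above Fzd1 in 37 of the 39 libraries and Fzd4 above Fzd8 in 38 of them. Of the neighbours in this order, Fzd1 was above Fzd7 in 24 libraries, Fzd7 above Fzd5 in 24 and Fzd5 above Fzd9 in 24. Fzd9 was above Fzd4 in 16 and Fzd8 above Fzd6 in 21. The order within these pairs thus changed from library to library, and the differences of their means were not tested. Fzd6 was above Fzd3 in 32 libraries and Fzd3 above Fzd10 in 28. Exons make up only 18.3% of the gene span of Fzd3 and 15.0% of that of Fzd6, against 76.5% for Fzd4, 96.1% for Fzd5 and 100% for the 6 others, so the levels of Fzd3 and Fzd6 are lowered most by the introns in the length. Against the background of its own library, Fzd2 was above it in all 39 libraries, with a median of 10.8 times the background. Fzd10 was above it in 28 of 39, with a median of 1.27 times, and had 0 counts in 1 NAc resilient library. Fzd3 stood at a median of 1.69 times the background. Fzd5 was above the background in all 39 libraries, with a median of 3.51 times, and over 2 times the background in every NAc library. In PFC it was over 2 times the background in 3 of 6 susceptible, 1 of 5 resilient and 2 of 6 control libraries. Its lowest ratio was 1.06, in PFC of resilient mice. The levels of Fzd5 below are given without subtracting the background.

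**Figure D1:**
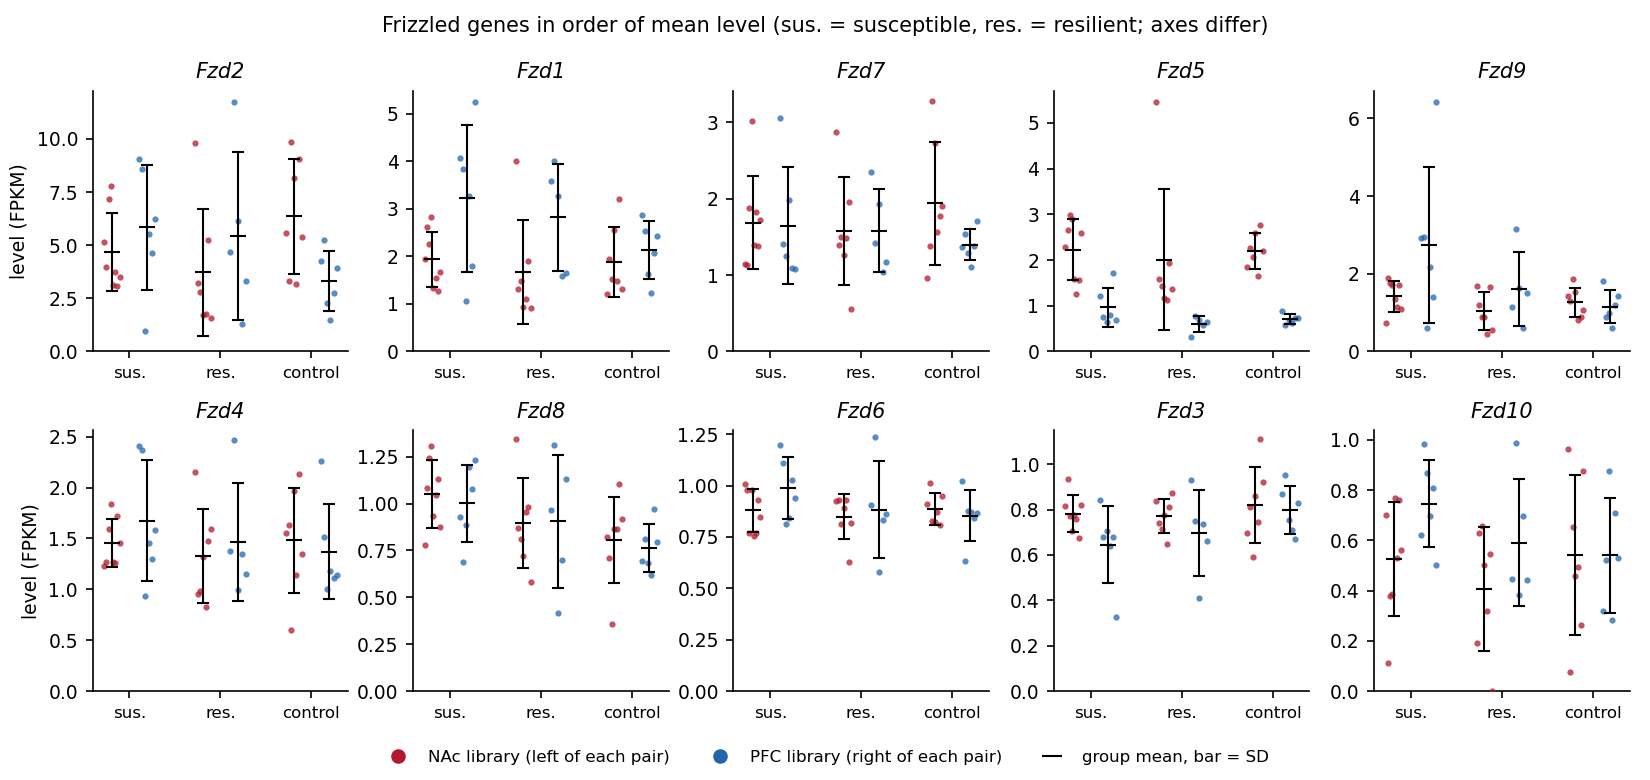
Levels of the 10 Frizzled genes in FPKM over the gene span, shown for every library as a point and for each of the 6 groups with the mean and SD. Fzd2 is highest on average at 4.87 FPKM and Fzd10 is lowest at 0.551 FPKM. In FPKM, Fzd5 is the member whose NAc and PFC libraries do not overlap in resilient and control mice.

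The member with the largest log2 fold change between regions, in size, in the edgeR fit of each of the 3 conditions was Fzd5, a receptor for canonical and non-canonical Wnt ligands that is needed in the mouse for yolk sac vessels and eye development. Fzd5 (ENSMUSG00000045005.9) lies on the minus strand of mm10 at chr1:64730558-64737751. In susceptible mice its level ran from 1.25 FPKM through a median of 2.44 to 2.98 FPKM in the 8 NAc libraries, against 0.637, 0.777 and 1.73 FPKM in the 6 PFC libraries. The ranges overlapped, and 5 of the 8 NAc libraries lay above the highest PFC library. In resilient mice the 7 NAc libraries had a lowest value of 1.13, a median of 1.42 and a highest of 5.45 FPKM, and the 5 PFC libraries had 0.310, 0.581, 0.640, 0.693 and 0.781 FPKM. In FPKM, every NAc library of resilient mice was above every PFC library. On the log2 CPM used for the permutation test below, the 2 groups overlapped. There PFC resilient replicate 2, at 2.98, lay above NAc resilient replicates 4, at 2.97, and 5, at 2.86. In control mice, whose values chose the genes, the NAc libraries ran from 1.66 through 2.20 to 2.77 FPKM and the PFC libraries from 0.580 through 0.706 to 0.887 FPKM, again without overlap.

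Group means followed the same order. Fzd5 averaged 2.23 ± 0.67 FPKM in NAc and 0.97 ± 0.42 FPKM in PFC of susceptible mice (SD, 8 and 6 libraries). It averaged 2.01 ± 1.54 FPKM in NAc and 0.60 ± 0.18 FPKM in PFC of resilient mice, and 2.20 ± 0.39 FPKM in NAc and 0.71 ± 0.11 FPKM in PFC of controls. Of the summed FPKM of the 10 receptors, Fzd5 took 13.3% in NAc and 5.55% in PFC of susceptible mice, 13.3% in NAc and 4.03% in PFC of resilient mice, and 12.3% in NAc and 5.59% in PFC of controls.

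**Figure D2:**
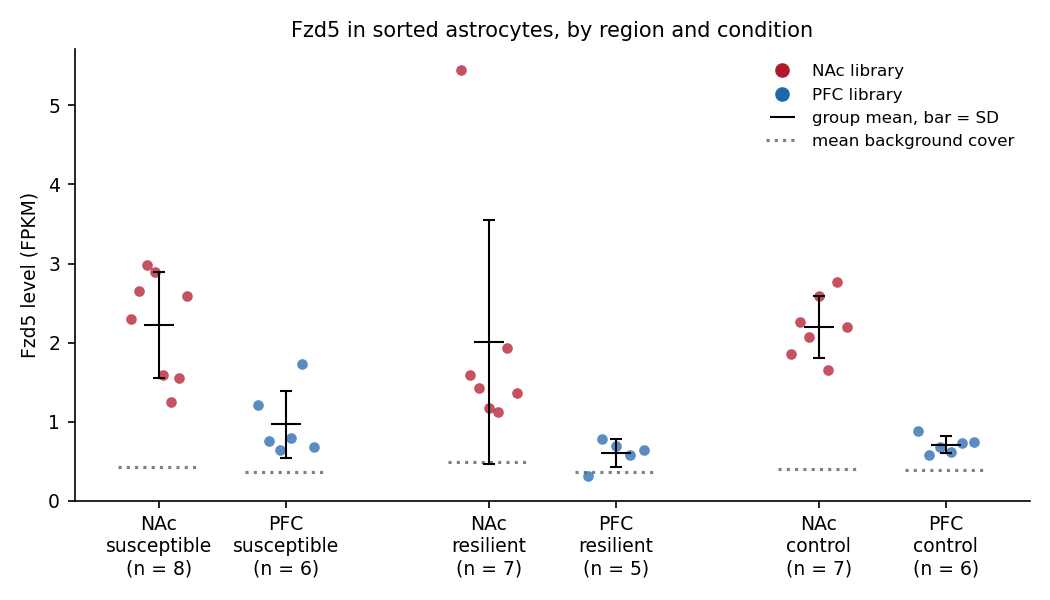
Fzd5 level in FPKM over the gene span in each library (points), with the mean and SD of each of the 6 groups. In FPKM, the NAc libraries of resilient and control mice all lie above the PFC libraries of the same condition. Those of susceptible mice overlap with PFC, which reaches 1.73 FPKM.

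In the libraries that were not used for the choice, Fzd5 was higher in NAc in exact tests of its own value, while it was not called over all genes. By a two-sided exact permutation test on log2 CPM, NAc exceeded PFC by 1.07 in susceptible (p = 0.00866, n = 8 and 6) and by 1.32 in resilient mice (p = 0.00758, n = 7 and 5). Both p-values are unadjusted. In the quasi-likelihood test of edgeR, the log2 fold change of NAc over PFC was 1.01 ± 0.32 (SE; adjusted p = 0.718) in susceptible and 1.61 ± 0.38 (adjusted p = 0.251) in resilient mice. For the controls it was 1.59 ± 0.33, as a description. Without NAc resilient replicate 1, the library with the highest Fzd5 value, the resilient difference was 1.05 ± 0.30 (adjusted p = 0.149). No gene was called in resilient mice at an adjusted p under 0.05, so that the background share is 0% of the 38171 genes tested, and 1 gene was called in each of the susceptible and control comparisons (0.00262% each). With DESeq2, which called 0.00905% of genes in susceptible, 0.0977% in resilient and 0.145% in control mice, the adjusted p of Fzd5 was 0.355 in susceptible mice, and in resilient mice DESeq2 gave none. Groups whose FPKM did not overlap, with NAc higher, were found for 0.0629% of genes in susceptible, 0.233% in resilient and 0.17% in control mice, and Fzd5 was the member among them in resilient and control mice. The comparisons of the 3 conditions use different libraries. The region difference of Fzd5 minus that of the controls was -0.58 ± 0.45 for susceptible and 0.02 ± 0.48 for resilient mice. Both values subtract the control difference that chose the genes and are given as a description, with no test.

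A second gene model, Gm38058, shares 1512 bases with Fzd5 on the opposite strand (chr1:64736240-64740607), and the strand setting of the counts was not stated, so reads of the 2 genes cannot be told apart there. Gm38058 had log2 fold changes of NAc over PFC of 0.56 ± 0.26 in susceptible (adjusted p = 0.718), 0.74 ± 0.30 in resilient (adjusted p = 0.322) and 0.57 ± 0.26 in control mice (adjusted p = 0.862) by edgeR.

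The DNA just upstream of the start of Fzd5 is printed because Fzd5 had the largest positive fold change between regions, and that of Fzd1 because its fold change was negative. RefSeq on GRCm38.p6 held an entry for 6 of the 10 members (Fzd1, Fzd4, Fzd5, Fzd7, Fzd9 and Fzd10). Each line gives the bases before the RefSeq start, 5′ to 3′ on the gene's own minus strand, at chr1:64737752-64738000 for Fzd5 and chr5:4758217-4758466 for Fzd1. Capitals mark the motifs searched on both strands, namely the GC box GGGCGG, the CCAAT box, the TATA box TATAAA and the TCF/LEF motif CTTTGA or CTTTGT.
Fzd5: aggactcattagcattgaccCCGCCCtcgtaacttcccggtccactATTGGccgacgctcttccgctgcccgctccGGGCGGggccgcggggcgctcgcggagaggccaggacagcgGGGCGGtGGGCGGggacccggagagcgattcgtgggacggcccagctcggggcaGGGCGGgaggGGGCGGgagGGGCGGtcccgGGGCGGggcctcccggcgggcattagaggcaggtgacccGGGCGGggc
Fzd1: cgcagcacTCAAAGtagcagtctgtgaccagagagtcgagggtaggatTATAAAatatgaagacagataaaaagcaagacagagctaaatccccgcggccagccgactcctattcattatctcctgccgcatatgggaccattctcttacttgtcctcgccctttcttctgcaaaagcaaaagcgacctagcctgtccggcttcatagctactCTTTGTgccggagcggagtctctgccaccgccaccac
The 250 bases before the start of Fzd5 held 9 GC boxes, 1 CCAAT box and no TATAAA or TCF/LEF letters, and 76.4% of its bases were G or C, as were 76.4% before Fzd9 and Fzd10, 72.8% before Fzd4 and 65.2% before Fzd7. Those before the start of Fzd1 held 1 TATAAA and 2 TCF/LEF matches and no GC or CCAAT box, and 51.2% of its bases were G or C, against a median of 52.4% over all 32851 upstream regions. Of those regions, 32.7% held a GC box, 33.8% a CCAAT box, 12.4% TATAAA and 27.6% a TCF/LEF motif. The same length before Fzd4 had 7 GC boxes, before Fzd7 it had 6, and before Fzd9 and Fzd10 it had 1 each. All these windows lie before the RefSeq start, and GENCODE M21 places part of some inside the gene. That part was all 250 bases for Fzd10, 183 for Fzd9, 11 for Fzd4 and 1 for Fzd5. The values of Fzd10, and most of those of Fzd9, thus describe bases inside the GENCODE gene. These matches describe the letters only, and a missing match says only that those letters are not in this window.

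Apart from Fzd5, most members had lower fitted levels in NAc than in PFC in the stressed mice, with none called. Of the 10 receptors, 2 had a positive and 8 a negative log2 fold change of NAc over PFC in susceptible mice, with a median of -0.40 against 0.03 over all genes tested. In resilient mice 1 was positive and 9 negative (median -0.39, against 0.06 over all genes). In controls 6 were positive and 4 negative (median 0.05, against -0.02). At an unadjusted p under 0.05, edgeR had 4 members in susceptible mice, against 6.23% of all genes, 2 members in resilient mice, against 14.6%, and 1 member in controls, against 5.04%, from which nothing is read since those values chose the genes. DESeq2 gave the same 3 counts of members. The 10 astrocyte markers were all negative in susceptible and in resilient mice. With their mean level as a covariate, described further below, 5 of 10 members were positive in susceptible mice (median 0.01) and 7 of 10 in resilient mice (median 0.10), so the mostly negative signs were not kept.

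Fzd1, a β-catenin-route receptor that shares roles with Fzd2 in mouse palate closure, ran from 1.27 through a median of 1.81 to 2.83 FPKM in NAc and from 1.07 through 3.56 to 5.26 FPKM in PFC of susceptible mice. The NAc range lay inside the PFC range. Its log2 fold change by edgeR was -0.88 ± 0.38 in susceptible (adjusted p = 0.718) and -1.01 ± 0.42 in resilient mice (adjusted p = 0.322). In resilient mice Fzd1 ran from 0.906 through 1.32 to 4.02 FPKM in NAc, and the 5 PFC libraries ran from 1.58 through 3.27 to 4.02 FPKM. The highest NAc value, in replicate 1, was close to the highest PFC value, and the other 6 NAc libraries were at or below 1.90 FPKM.

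Fzd9, a receptor known from work on the hippocampus and on bone, ran from 0.744 through 1.53 to 1.88 FPKM in NAc and from 0.602 through 2.54 to 6.42 FPKM in PFC of susceptible mice. PFC of susceptible mice held the widest spread of Fzd9 among the 6 groups, on low counts of 18 to 79 per library. Its log2 fold change was -0.97 ± 0.39 in susceptible (adjusted p = 0.718) and -0.79 ± 0.44 in resilient mice (adjusted p = 0.382) by edgeR. Fzd6, known for polarity and hair patterning in mouse skin, had -0.36 ± 0.18 in susceptible mice (adjusted p = 0.718). Its level was 0.88 ± 0.11 FPKM in NAc and 0.99 ± 0.15 FPKM in PFC.

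Fzd2 differed in sign between conditions without a call. It averaged 4.68 ± 1.84 FPKM in NAc and 5.84 ± 2.95 FPKM in PFC of susceptible mice, 3.73 ± 2.98 FPKM in NAc and 5.42 ± 3.95 FPKM in PFC of resilient mice, and 6.36 ± 2.71 FPKM in NAc and 3.31 ± 1.40 FPKM in PFC of controls. By edgeR the log2 fold change of NAc over PFC was -0.54 ± 0.51 in susceptible (adjusted p = 0.747), -0.82 ± 0.56 in resilient (adjusted p = 0.446) and 0.79 ± 0.53 in control mice.

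For the remaining receptors the NAc and PFC ranges overlapped in every condition. Fzd4, the receptor that also binds Norrin in retinal and brain vessels, averaged 1.45 ± 0.24 FPKM in NAc and 1.68 ± 0.59 FPKM in PFC of susceptible mice. Fzd7, known from intestinal stem cells, averaged 1.69 ± 0.61 FPKM in NAc and 1.65 ± 0.77 FPKM in PFC of the same mice. Fzd8, the closest relative of Fzd5, averaged 1.05 ± 0.18 FPKM in NAc and 1.00 ± 0.20 FPKM in PFC of susceptible mice. Fzd3, which guides axons in the mouse brain, averaged 0.78 ± 0.08 FPKM in NAc and 0.65 ± 0.17 FPKM in PFC. Fzd10, studied mostly in the embryonic neural tube, averaged 0.53 ± 0.23 FPKM in NAc and 0.75 ± 0.17 FPKM in PFC. Fzd3 overlaps 2 other gene models, and Fzd6 overlaps 1, so part of their counts may belong to those.

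**Figure D3:**
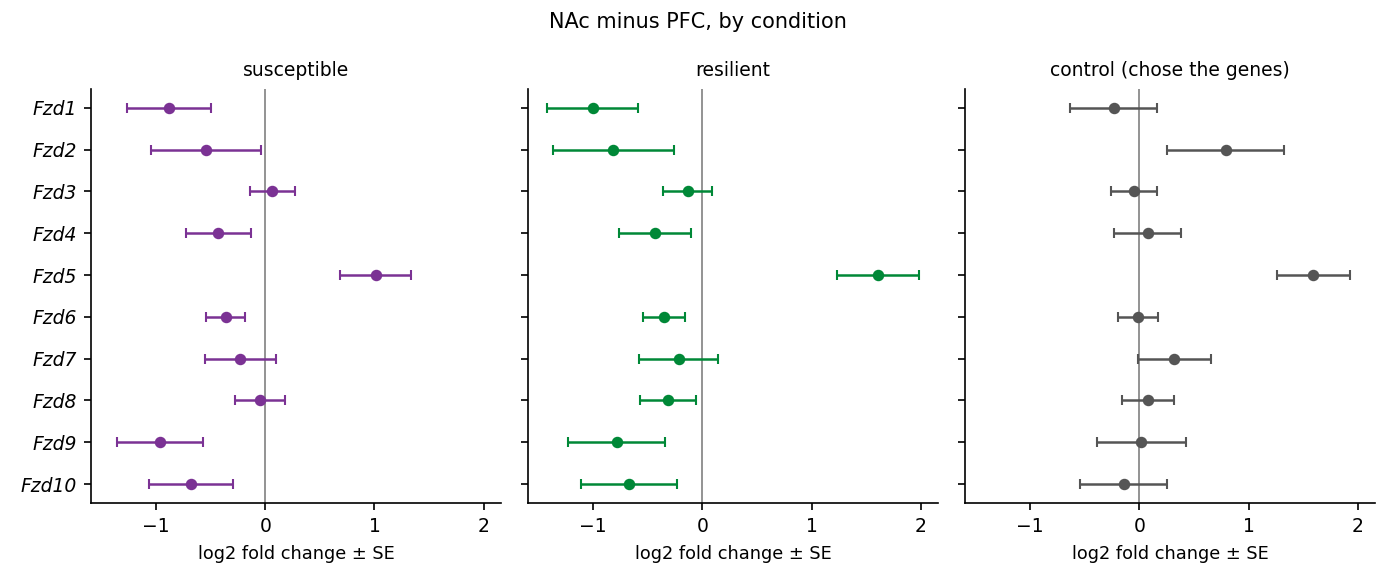
Log2 fold change of NAc over PFC with its SE for each Frizzled gene, from the edgeR fit of all 39 libraries, in susceptible, resilient and control mice from left to right. Fzd5 lies to the right of 0 in all 3 panels, at 1.01, 1.61 and 1.59, and the control panel chose the genes.

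No receptor was called between behavioural groups in NAc. For susceptible against control mice 2 of 10 log2 fold changes were positive (median -0.07, against -0.00 over all genes), for resilient against control mice 1 was positive (median -0.21, against 0.01), and for susceptible against resilient mice all 10 were positive (median 0.17, against 0.02). These comparisons share libraries with one another. All 10 astrocyte markers had the sign of most receptors: they were negative in susceptible (median -0.24) and resilient (median -0.60) against control mice and positive in susceptible against resilient mice (median 0.37). With the astrocyte marker covariate, 4 of 10 receptors were positive in susceptible and 5 of 10 in resilient against control mice, and 3 of 10 in susceptible against resilient mice. The 8 oligodendrocyte markers were negative throughout in susceptible (median -0.78, 6 with an unadjusted p under 0.05) and resilient (median -1.11, 7 with one) against control mice, and their part in the receptor values was not tested. The share of all genes called was 0% in each of the 3, and at an unadjusted p under 0.05 edgeR had 0 members in each. The share of all 35943 genes at that p was 3.02% for susceptible with control mice, 6.14% for resilient with control mice and 2.9% for susceptible with resilient mice. By limma on log2(FPKM + 0.1), 1 member had a p under 0.05 in each comparison with controls, and by DESeq2 none did. The largest fold change of a member was that of Fzd2 in resilient against control mice, at -0.75 ± 0.45 (adjusted p = 0.756). Fzd5 had -0.06 ± 0.34 in susceptible and -0.17 ± 0.35 in resilient against control mice, as a description, since the control values of Fzd5 chose the genes. Without NAc resilient replicate 1, Fzd5 had -0.74 ± 0.22 in resilient against control mice and 0.68 ± 0.21 in susceptible against resilient mice (adjusted p = 0.617) by edgeR. That library also had the highest mean log2 CPM of the astrocyte markers in its group, 8.72, against 6.22 to 7.74 in the other 6.

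In PFC the receptors tended to positive fold changes in stressed mice, again without a call. Of 10 members, 9 were positive in susceptible against control mice (median 0.46, against -0.01 over all genes), 8 in resilient against control mice (median 0.28, against -0.02) and 8 in susceptible against resilient mice (median 0.09, against 0.00). These comparisons too share libraries. All 10 astrocyte markers were positive in susceptible (median 0.73) and in resilient (median 0.80) against control mice, and 4 of 10 were in susceptible against resilient mice (median -0.02). With the astrocyte marker covariate the median of the receptors was 0.15 in susceptible against control mice (9 of 10 positive), 0.04 in resilient against control mice (7 of 10) and 0.08 in susceptible against resilient mice (8 of 10). The share of all 32167 genes called was 0% in each. At an unadjusted p under 0.05, edgeR had 1 member, Fzd9, in susceptible against control mice, where 0.482% of genes had one. It had 0 members in the other pairs, against 0.597% for resilient with control mice and 0.572% for susceptible with resilient mice. DESeq2 gave the same 3 counts, and limma on log2(FPKM + 0.1) gave 1 member for susceptible with resilient mice and 0 for the other pairs. Fzd9 averaged 2.74 ± 2.01 FPKM in susceptible, 1.61 ± 0.95 FPKM in resilient and 1.15 ± 0.42 FPKM in control PFC. Its counts were low, at 18 to 79 per library in susceptible, 6 to 36 in resilient and 18 to 49 in control PFC. Its log2 fold change was 1.23 ± 0.53 in susceptible against control mice (adjusted p = 1.00), and 4 of the 6 susceptible libraries lay above the highest control library. Fzd2 had 0.88 ± 0.57 and Fzd1 0.63 ± 0.43 in the same comparison (adjusted p = 1.00 for both by edgeR). Fzd5 had 0.69 ± 0.34 in susceptible against resilient mice (adjusted p = 1.00 by edgeR). Against control mice it had 0.54 ± 0.31 in susceptible mice, which is no test, because the family was chosen for low Fzd5 values in these PFC controls and a positive difference from them is favoured by that choice.

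**Figure D4:**
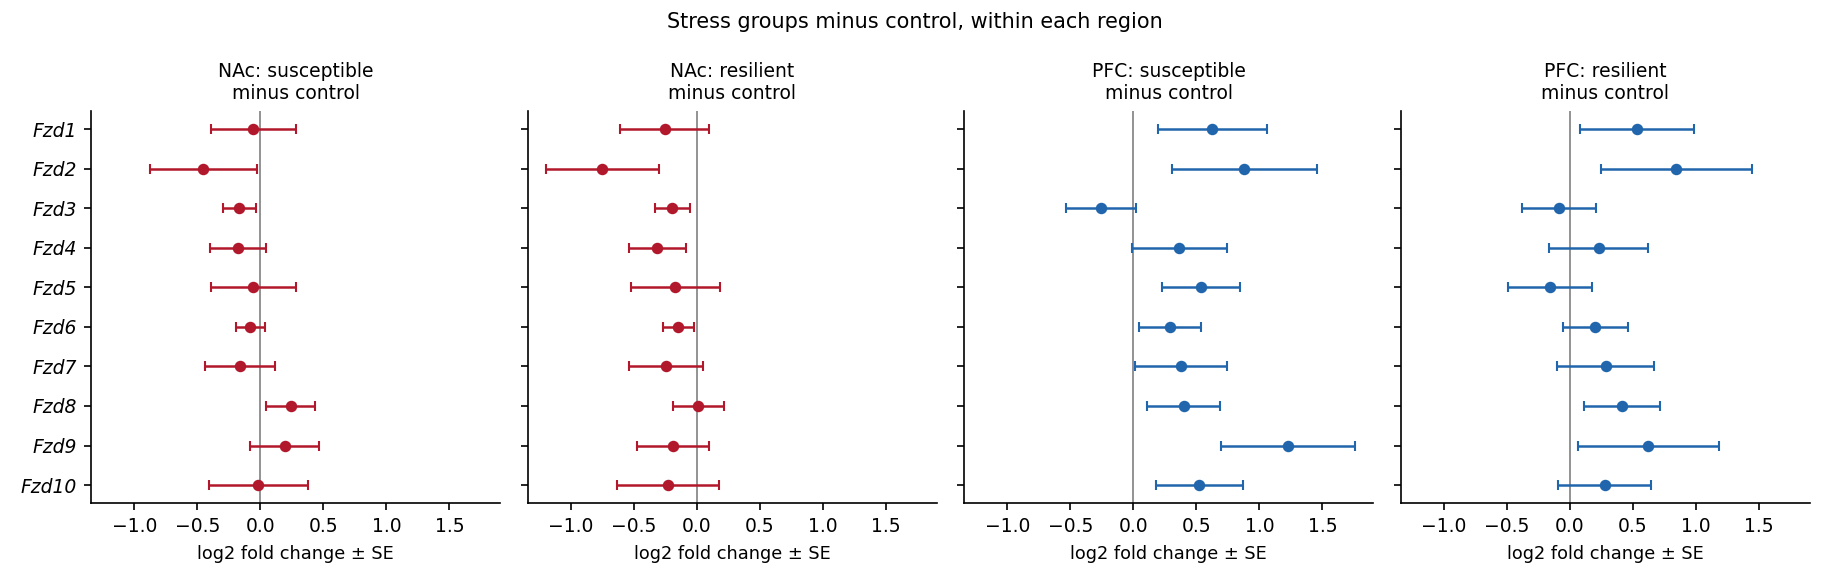
Log2 fold change with its SE for each Frizzled gene between behavioural groups, from the edgeR fits of the 22 NAc and 17 PFC libraries. In PFC, Fzd9 reaches 1.23 in susceptible against control mice, and no value passed an adjusted p under 0.05.

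The stress effects in NAc minus those in PFC had a median over the members of -0.54 for susceptible mice, with 9 of 10 negative (0.05 over all genes), and of -0.52 for resilient mice, with 9 of 10 negative (0.07 over all genes). Both subtract the same 13 control libraries, which are also those on which the genes were chosen, so that the 2 counts are not independent of each other or of the choice. The astrocyte markers were negative in 10 of 10 cases for susceptible (median -0.95) and for resilient mice (median -1.42). With the mean astrocyte marker level as a covariate, 8 of 10 members were negative for susceptible (median -0.17) and 4 of 10 for resilient mice (median 0.02), and Fzd2 had -0.21 ± 0.22 for resilient mice. None was called by edgeR, as for all genes (0% in both). An unadjusted p under 0.05 was found for 0 members in the susceptible interaction, against 1.38% of genes, and by DESeq2 for 0. It was found for 1 member in the resilient interaction, against 3.45% of genes, and by DESeq2 for 1. That member was Fzd2, at -1.61 ± 0.77 without the covariate (adjusted p = 0.849 by edgeR).

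Receptor levels moved with the astrocyte markers from library to library. Over the 22 NAc libraries, the log2 CPM of Fzd2 and the mean log2 CPM of the 10 astrocyte markers had r = 0.95 and rho = 0.96, and over the 17 PFC libraries r = 0.98 and rho = 0.96. The permutation p was 1e-05 for each, the smallest that 100000 resamples can give, and the values adjusted over the 180 relations computed were 0.0003 for r and 0.000225 for rho. Without the 2 libraries farthest from the median marker level, r was 0.93 in NAc and 0.97 in PFC. Only 0.802% of 26425 genes in NAc and 0.225% of 25784 genes in PFC had an r as high with these markers, where the median gene had -0.20 and -0.16. Fzd1 had r = 0.87 and rho = 0.82 in NAc, and r = 0.95 and rho = 0.97 in PFC (adjusted permutation p = 0.0003 and 0.000225 in both; r = 0.85 and 0.91 without the 2 farthest). Fzd9 had r = 0.74 and rho = 0.74 in NAc (adjusted permutation p = 0.000415 and 0.0018; r = 0.65 without the 2 farthest), and r = 0.90 and rho = 0.90 in PFC (adjusted 0.0004 and 0.000225; r = 0.85 without them). The r of all 10 members was positive in both regions, with a median of 0.61 in NAc and 0.74 in PFC. In each region 7 members had an adjusted permutation p of r under 0.05, and the share of all genes with one was not computed. The share of genes with an r as high as the member's ran from 0.802% (Fzd2) to 37.8% (Fzd10) in NAc. In PFC it ran from 0.225% (Fzd2) to 35.7% (Fzd3). For Fzd4 it was 22.1% in NAc and for Fzd7 20.6% in PFC, so not every member stood out from other genes.

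The receptors also went with the 8 oligodendrocyte markers, for which 3 members in NAc and 5 in PFC had an adjusted permutation p of r under 0.05. The share of all genes with one was not computed here either. Fzd5 had r = 0.59 and rho = 0.68 with these markers in NAc (adjusted permutation p = 0.0194 and 0.00524). In PFC it had r = 0.33 and rho = 0.45 with these markers (adjusted permutation p = 0.323 and 0.174). Fzd2 had r = 0.71 and rho = 0.72 with them in NAc (adjusted permutation p = 0.00147 and 0.00227; r = 0.64 without the 2 farthest), and r = 0.79 and rho = 0.79 in PFC (adjusted permutation p = 0.00147 and 0.00291; r = 0.78 without them). Fzd7 had its highest r in PFC with these markers, at r = 0.82 and rho = 0.84 (adjusted permutation p = 0.000415 and 0.00054; r = 0.80 without the 2 farthest).

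Fzd5 had r = 0.85 and rho = 0.82 with the astrocyte markers in NAc (permutation p = 1e-05, the smallest possible; adjusted 0.0003 and 0.000225), and r = 0.79 without the 2 farthest libraries. In PFC it had r = 0.54 (permutation p = 0.0261, adjusted 0.0758) and rho = 0.63 (permutation p = 0.00787, adjusted 0.033), and r = 0.47 without the 2 farthest. The genes with an r at least as high were 6.1% of all genes in NAc and 30.3% in PFC. Fzd10 had the lowest r in NAc, 0.05, and Fzd3 the lowest in PFC, 0.40. In PFC, Fzd3 had a higher r with the markers of cortical neurons (r = 0.89, rho = 0.69, permutation p = 1e-05 and 0.00313, adjusted 0.0003 and 0.0176; r = 0.83 without the 2 farthest). Fzd4, whose r with the astrocyte markers was 0.86 in PFC, also went with those of vessels there (r = 0.81, rho = 0.81, permutation p = 0.00021 and 0.00017, adjusted 0.00164 and 0.0018; r = 0.70 without the 2 farthest). All of these points share libraries, depth and background. With the background percent, Fzd2 had r = -0.77 and rho = -0.73 in NAc and r = -0.81 and rho = -0.82 in PFC (adjusted permutation p of r = 0.000415 and 0.00114, of rho = 0.0018 in both; r = -0.70 and -0.71 without the 2 farthest). Fzd5 had r = -0.56 and rho = -0.62 in NAc (adjusted permutation p = 0.0312 and 0.0175; r = -0.63 without the 2 farthest). In PFC it had r = -0.46 and rho = -0.63 (adjusted permutation p = 0.137 and 0.034), and r = -0.12 without the 2 farthest, so that r in PFC rested on those libraries, and rho was not recomputed without them. With the background percent as a covariate in the edgeR fit, Fzd5 had a log2 fold change of NAc over PFC of 1.24 ± 0.29 in susceptible (adjusted p = 0.489), 1.91 ± 0.35 in resilient (adjusted p = 0.0926) and 1.67 ± 0.29 in control mice.

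**Figure D5:**
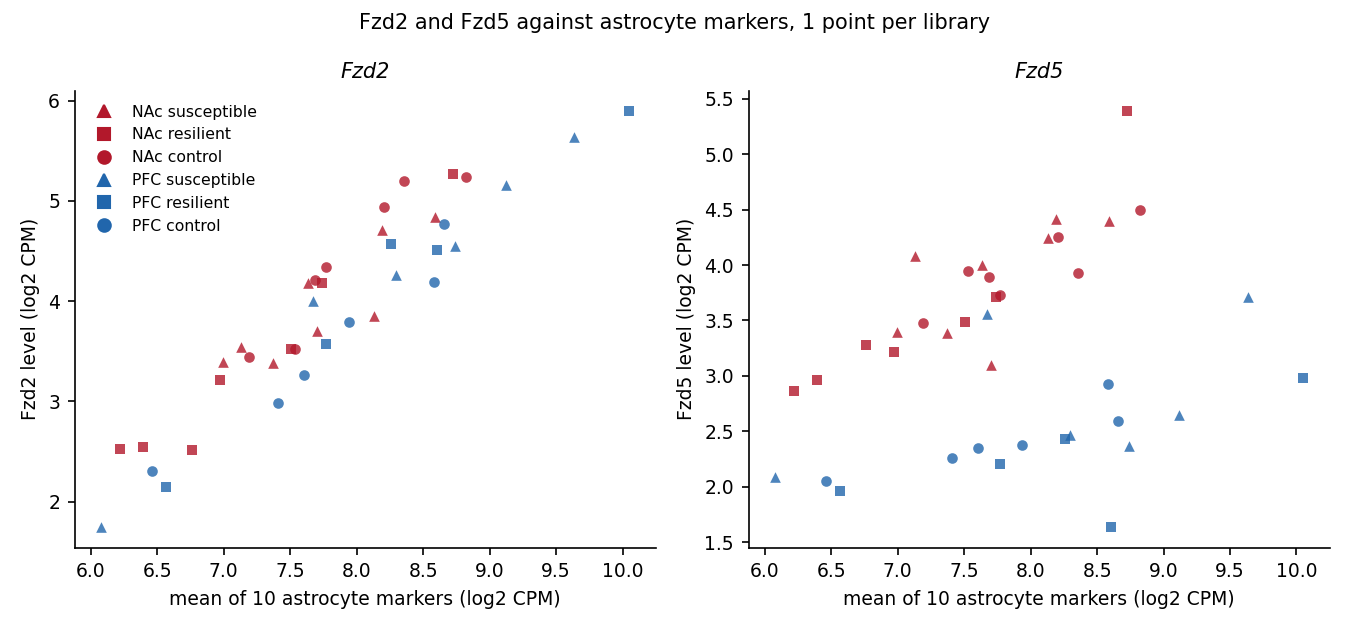
Log2 CPM of Fzd2 and Fzd5 in each library against the mean log2 CPM of 10 astrocyte markers, by region and condition. Fzd2 follows the markers in both regions (r = 0.95 in NAc, 0.98 in PFC), and Fzd5 has r = 0.85 in NAc and 0.54 in PFC, where PFC susceptible replicate 5 lies among the NAc libraries.

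The astrocyte markers had fold changes between the regions as well. All 10 astrocyte markers had negative log2 fold changes of NAc over PFC in susceptible (median -0.88) and resilient mice (median -1.33), with a median of 0.11 in controls, and none was called. With the mean astrocyte marker level of each library as a covariate in the edgeR fit, an alternative added after the data were seen, Fzd5 was called in susceptible and in resilient mice. Its log2 fold change of NAc over PFC was then 1.22 ± 0.23 in susceptible (adjusted p = 0.0215), 1.88 ± 0.27 in resilient (adjusted p = 0.000209) and 1.495 ± 0.227 in control mice. In that fit 0.0131% of genes were called in susceptible, 0.00524% in resilient and 0.139% in control mice. Each of the 3 values lay less than 1 SE from the value without the covariate. The fit held all 39 libraries, so the spread and the covariate's slope behind both calls also came from the controls that chose the genes. The calls are thus not independent of that choice. With only the 2 groups and no covariate, the adjusted p of Fzd5 by edgeR was 0.652 in susceptible and 0.374 in resilient mice. The covariate was not fitted with only the 2 groups.

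For Fzd1 and Fzd9 the region differences were smaller with the same covariate. Fzd1 had -0.31 ± 0.16 in susceptible and -0.26 ± 0.19 in resilient mice, and Fzd9 had -0.32 ± 0.23 in susceptible and 0.12 ± 0.27 in resilient mice, with adjusted p of 1.00 in each case. Fzd2 had 0.32 ± 0.14 in susceptible and 0.47 ± 0.17 in resilient mice (adjusted p = 1.00 for both by edgeR), with a sign opposite to that without the covariate. In controls it had 0.68 ± 0.14. In PFC, Fzd9 had 0.55 ± 0.27, Fzd2 0.17 ± 0.16 and Fzd1 0.13 ± 0.19 in susceptible against control mice with the covariate (adjusted p = 1.00 for all). No member was called between behavioural groups or in an interaction with it.

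Markers of neurons had fold changes between the regions too. The 6 pan-neuronal markers all had negative fold changes of NAc over PFC, with medians of -0.91 in susceptible, -1.03 in resilient and -1.15 in control mice. Their summed level was 757 ± 97 CPM in NAc and 1112 ± 638 CPM in PFC of susceptible mice, 828 ± 125 CPM in NAc and 1374 ± 703 CPM in PFC of resilient mice, and 816 ± 232 CPM in NAc and 1497 ± 835 CPM in PFC of controls. The 10 markers of striatal projection neurons had medians of 0.20 in susceptible, 0.60 in resilient and 0.06 in control mice. Their summed level was 584 ± 28 CPM in NAc and 504 ± 71 CPM in PFC of susceptible mice. The 7 markers of cortical excitatory neurons summed to 139 ± 19 CPM in NAc and 186 ± 98 CPM in PFC of susceptible mice, 146 ± 23 CPM in NAc and 240 ± 115 CPM in PFC of resilient mice, and 125 ± 21 CPM in NAc and 275 ± 134 CPM in PFC of controls. Of the 8 oligodendrocyte markers, 6 had a positive fold change of NAc over PFC in susceptible mice (median 0.05) and all 8 a negative one in resilient mice (median -0.44). In controls all 8 were positive (median 0.985), 6 of them with an unadjusted p under 0.05 by edgeR. None of these marker genes was called, and their part in the Fzd5 difference was not tested.

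The genes whose 6 group means were most like those of Fzd5 were Six3os1, C4b, Six3, Nmur2 and Prss56, with mean absolute differences of 0.10, 0.12, 0.19, 0.24 and 0.25 on the centred log2 CPM scale. Six3 encodes a homeobox factor of the forebrain, Six3os1 is the transcript opposite to it, and C4b encodes a complement component. All of them, like Fzd5, were higher in the 3 NAc means than in the 3 PFC means. That direction follows from how they were picked, by closeness to the group means of Fzd5, those of the controls included. The genes most like Fzd2 were Ppp1r14a, Bcan, Gja1, Apoe and Pea15a, with differences between 0.06 and 0.09. Bcan, Gja1 and Apoe encode brevican, connexin 43 and apolipoprotein E, which astrocytes are known to make. Gja1 is itself 1 of the 10 astrocyte markers, and the closest gene, Ppp1r14a, is in none of the marker lists. No cell type is read from these likenesses.

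Other genes of the Wnt pathway were counted by role, and none was called by edgeR in any comparison. Of 19 Wnt ligands, 0 had an unadjusted p under 0.05 between regions in susceptible, 3 in resilient and 3 in control mice. Of the 19, 15 had a positive log2 fold change of NAc over PFC in susceptible mice (median 0.09), 13 in resilient mice (median 0.15) and 7 in control mice (median -0.12). The 3 with a p under 0.05 in resilient mice were Wnt8a at 0.77 ± 0.36, Wnt5b at 0.38 ± 0.18 and Wnt4 at -0.63 ± 0.28 (adjusted p = 0.331, 0.337 and 0.326 by edgeR). Wls, which carries Wnt proteins to the cell surface, had -0.50 ± 0.18 in susceptible and -0.48 ± 0.19 in resilient mice (adjusted p = 0.718 and 0.322 by edgeR). Of the 6 co-receptors and other Wnt receptors, none had a p under 0.05 in any region comparison. Lrp6 averaged 0.87 ± 0.05 FPKM in NAc and 0.91 ± 0.12 FPKM in PFC of susceptible mice.

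Among partners of Fzd4 in vessels, 2 of 4 had a p under 0.05 in susceptible and 2 in resilient mice, and 1 had one in controls. Of the 2 in each stressed condition, 1 was higher and 1 lower in NAc. Over the 4 genes, 1 was positive and 3 were negative in each condition, with medians of -0.22 in susceptible, -0.20 in resilient and -0.02 in control mice. The positive one was Tspan12. Tspan12, the partner of Fzd4 in Norrin signalling, had 0.36 ± 0.13 in susceptible (adjusted p = 0.718), 0.29 ± 0.14 in resilient (adjusted p = 0.331) and 0.30 ± 0.13 in control mice (adjusted p = 0.755). Of 9 genes of receptor turnover, 1 had a p under 0.05 in resilient and 0 in susceptible and control mice. It was Znrf3, which encodes a ligase that removes Frizzled from the membrane, at -0.42 ± 0.20 in resilient mice (adjusted p = 0.337). Of 15 secreted inhibitors and their receptors, 0 had one in susceptible, 1 in resilient and 1 in control mice.

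Of 10 cytoplasmic transducers, 2 had a p under 0.05 in susceptible, 8 in resilient and 0 in control mice, and all 10 were negative in resilient mice, with a median of -0.70. The 10 astrocyte markers were all negative there too, with a median of -1.33 and 8 at an unadjusted p under 0.05 by edgeR. None of these Wnt lists was examined with the astrocyte marker covariate, so the part of the marker level in their values was not tested. Ctnnb1, which encodes β-catenin, had -0.62 ± 0.28 in susceptible mice, and Dvl3, a Dishevelled gene, had -0.55 ± 0.26 in susceptible and -0.74 ± 0.29 in resilient mice. Of 8 TCF and LEF factors with their coactivators, 2 had a p under 0.05 in susceptible, 1 in resilient and 2 in control mice, and Lef1 had -0.27 ± 0.13 in susceptible and -0.41 ± 0.13 in control mice. Of 13 feedback and target genes, 4 had one in susceptible, 2 in resilient and 2 in control mice, and Axin2 had -0.59 ± 0.24 in resilient mice. Of 8 planar polarity partners, 3 had one in susceptible, 4 in resilient and 3 in control mice. Prickle1 had -0.58 ± 0.27 in susceptible, -0.84 ± 0.29 in resilient and -0.68 ± 0.28 in control mice. Celsr2, an atypical cadherin that works with Frizzled in polarity, had -0.98 ± 0.41 in susceptible, -1.26 ± 0.44 in resilient and -0.87 ± 0.43 in control mice. The smallest adjusted p of these lists between regions was 0.305 by edgeR, and the shares of all genes at an unadjusted p under 0.05 are those given above for the receptors.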

How the data were processed

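The authors deposited whole-number counts per gene, made with featureCounts on mm10 per the submitters' processing notes. The sources used here do not give versions, the aligner, the annotation or the strand setting. Per the labels' protocols, 500 pg of RNA entered Takara's stranded pico kit, which does not select polyadenylated RNA. The deposited FPKM are those counts divided by the library total and the whole gene span, which matched GENCODE M21 within 1e-06 for 54229 of 54229 genes compared. Of the identifiers, 55141 matched that release without version and 260 had no name. No 2 libraries were identical.

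The main test of the counts was edgeR's quasi-likelihood F test (version 4.0.16; R 4.3.3; trimmed-mean scaling, default filter by group, robust dispersion, Benjamini-Hochberg adjustment over all genes). Genes with an adjusted p under 0.05 are called. All 39 libraries were fitted together for the region comparisons and their interactions, and each region alone for the behavioural groups. DESeq2 1.42.0 and limma 3.58.1 were alternatives. Values are mean ± SD per group and fold changes are log2 ± SE. The correlations used log2 CPM of genes above 1 and permutation tests. These tests shuffled all libraries of a region together, without regard to behavioural group or replicate number. The script's fits were checked on simulated counts. All members, the pathway and marker lists and the alternatives were chosen with earlier results of these data known. The named genes were the members, up to 3 genes per list with the smallest p, and the 5 genes most like Fzd5 and Fzd2 in their group means.

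Same-numbered PFC libraries deviated together when genes above a log2 CPM of 3 were used (lowest correlation 0.149), whereas those of NAc had mixed signs, and the labels tie the numbers to nothing.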

Additional observations from a re-analysis of the deposited data

Results flagged for a closer look

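For 5 of the 60 sets of values, 1 for each receptor and group, 1 library stood apart from the others by Dixon's 95% criterion, where chance gives about 3. NAc resilient replicate 1 was the highest of its group for Fzd5, at 5.45 FPKM against 1.93 FPKM in the next library, and for Fzd1, at 4.02 FPKM against 1.90 FPKM. NAc resilient replicate 6 was the lowest of its group for Fzd6, at 0.627 FPKM against 0.813 FPKM in the next. PFC resilient replicate 2 was the highest of its group for Fzd4, at 2.47 FPKM against 1.38 FPKM. NAc susceptible replicate 4 was the highest of its group for Fzd7, at 3.01 FPKM against 1.87 FPKM.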

How the results depend on the processing

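Between NAc and PFC controls, whose values chose the genes, Fzd5 alone was called by DESeq2 (1.61), by limma on log2(FPKM + 0.1) (1.503), with the background percent as a covariate (1.67), with only the 2 groups in the edgeR fit (1.60) and with consecutive sample numbers as pairs (1.58), giving 1 member each against 0, a description only. The share of all genes called was 0.145% with DESeq2. It is not given here for the other settings just named, so their member counts cannot be weighed against it. The astrocyte marker covariate, chosen after seeing the data, gave 2 members in controls (Fzd5 and Fzd2) and 1 (Fzd5) each in susceptible and resilient mice. That fit took its spread and slope from all 39 libraries, the controls that chose the genes included. RLE scaling, other count filters, limma on log2(FPKM + 0.5) and leaving out the 3 shallowest libraries called 0 members in every comparison. Leaving out each library in turn gave 0 to 0 members. Over all alternatives the log2 fold change of Fzd5 lay between 0.84 and 1.24 in susceptible, 1.05 and 1.91 in resilient and 1.15 and 1.70 in control mice. With the replicate block, Fzd5 had 1.08 in susceptible (adjusted p = 0.897), 1.52 in resilient (adjusted p = 0.251) and 1.68 in control mice, and the block changed no call of a member; its 0 members called equal those without it. Of 2950 alternative values of members, called or not, 204 had another sign, and in none of these 204 was the p without the alternative under 0.05. The cause of these changes was not tested. Depth limits Fzd10, which had 67 counts at most in any library, and Fzd9, which had 83 at most and a median of 36.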
